A study of Mus musculus with 10 samples.

Results

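Chromatin accessibility was described at 9 genes whose products restrain or tune antigen receptor signalling in T cells, namely Cd5, Cd6, Ptpn6, Ptpn22, Ptpn2, Cblb, Ubash3a, Dgka and Dgkz. Their regions were all regions of the deposited accessibility table (build mm10) that overlap the body of one of these genes or lie within 50000 bp of its annotated start. This rule gave 260 of the 94823 regions in the table, and 9 of them lie between Cd5 and Cd6 and count for both genes. Cblb held 51 regions, Cd5 43, Ptpn2 32, Ptpn22 29, Dgkz 29, Cd6 27, Ptpn6 27, Dgka 17 and Ubash3a 14. The windows also hold starts and bodies of neighbouring genes, so a region is named below by its distance from the start of the member and by what the annotation places there.

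Invariant natural killer T (iNKT) cells are T cells with a nearly fixed antigen receptor that recognises lipids on CD1d, and they divide in the thymus into iNKT1 cells, which make interferon-gamma, and iNKT2 cells, which make interleukin 4. Assay for transposase-accessible chromatin with sequencing (ATAC-seq) was done on iNKT1 cells sorted as CD27+ CD122+ and iNKT2 cells sorted as CD27+ CD122- from the thymus of BALB/c mice and of SKG mice. SKG mice carry a germline point mutation in Zap70, the kinase next to the antigen receptor, on the BALB/c background, so all of their cells carry the weakened kinase and not iNKT cells alone. There were 2 libraries of BALB/c iNKT1, 2 of SKG iNKT1, 3 of BALB/c iNKT2 and 3 of SKG iNKT2 cells, from mice of 8 to 10 weeks. The comparison of subsets asks how the loci differ between iNKT1 and iNKT2 cells, and the comparison of genotypes asks how they differ when Zap70 activity is reduced.

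The strength of the signal that a developing T cell receives is set partly by proteins that work against the receptor. CD5 and its neighbour CD6 are related surface receptors that recruit inhibitors, and CD5 is commonly used as a gauge of the signal a thymocyte has received. By flow cytometry, the study reported CD5 and CD6 protein to be highest on iNKT2 and lowest on iNKT1 cells. Accessibility at these loci, described below, is a different measure from protein, and its relation to protein was not tested. The phosphatases encoded by Ptpn6 (SHP-1), Ptpn22 and Ptpn2 remove phosphate from receptor-proximal kinases and their substrates. Cblb encodes the ubiquitin ligase Cbl-b and Ubash3a the protein STS-2, which both act close to Zap70. Dgka and Dgkz encode diacylglycerol kinases, which remove the lipid messenger diacylglycerol.

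Each library held between 14988590 and 36342635 transposase insertions in the 94823 regions, and the 2 SKG iNKT1 libraries, with 17214764 and 17454220, were shallower than the 2 BALB/c iNKT1 libraries, with 36342635 and 24735873. The median count in a member region ran from 44 to 158 insertions across libraries. The sorted subset was checked at promoters. The Il2rb promoter, which belongs to the gene encoding CD122, was at 93.4 ± 0.364 and 93.2 ± 6.12 CPM (insertions scaled to the same library size in every library; SD, n = 2 each) in BALB/c and SKG iNKT1 cells and at 27.8 ± 1.40 and 31.0 ± 8.73 CPM (n = 3 each) in BALB/c and SKG iNKT2 cells. The Ifng, Cxcr3, Tbx21 and Klrd1 promoters were likewise more accessible in iNKT1 cells, and that of Il17rb in iNKT2 cells. None of the other 4 promoters on the iNKT2 list passed as higher in iNKT2 cells of both genotypes at an adjusted p under 0.01 (edgeR). Ccr7 passed in SKG mice (log2 change 1.46, adjusted p = 2.3e-05) and not in BALB/c mice (0.46, 4.9e-02). Il4 went the other way, with -0.63 in BALB/c (0.18) and -1.49 in SKG mice (6.3e-03). Zbtb16 (-0.36 and 0.08) and Gata3 (-0.27 and 0.27) passed in neither. SKG iNKT2 replicate 1 stood apart from the other 2 libraries of its group, with 40.9 CPM at Il2rb against 24.3 and 27.8 CPM. The promoters of the iNKT17 markers Il23r, Il17a and Ccr6 were at 0.937 to 5.46 CPM in the iNKT2 groups and at 0.0321 to 0.193 CPM in the iNKT1 groups, so signal from iNKT17-type chromatin moved with the iNKT2 label. Its part in the subset differences below was not tested. No region lay at the start of the B cell genes Pax5 and Ms4a1, of Rag1 and Ptcra, which mark immature thymocytes, or of the myeloid genes Csf1r and Lyz2. The Cd8a promoter, on the immature thymocyte list, was at 0.252 to 1.57 CPM and the Itgam promoter, on the myeloid list, at 0.348 to 2.92 CPM over the 4 groups, and both were highest in SKG iNKT1 cells. The T cell promoters Cd3e, Cd3d and Lck were open in all groups, at 13.5 to 34.9 CPM.

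Below are the central 300 bases of 5 regions that carry the differences, read from the plus strand of the reference genome GRCm38 (the same assembly as mm10, from a C57BL/6J mouse and not from BALB/c). The first 3 are, of the regions called between subsets, those with the smallest adjusted p in SKG mice (Cd5 and Cd6) or in BALB/c mice (Cblb), and all were less accessible in iNKT2 cells. The fourth is a Cblb region that was more accessible in iNKT2 cells, which overlaps a coding exon lying outside the letters shown. The fifth is the only member region that was at least 4-fold more accessible in SKG than in BALB/c iNKT2 cells. Capitals mark matches to any of the 8 motifs listed in the next paragraph.
Cd5 upstream region, chr19:10747667-10747966: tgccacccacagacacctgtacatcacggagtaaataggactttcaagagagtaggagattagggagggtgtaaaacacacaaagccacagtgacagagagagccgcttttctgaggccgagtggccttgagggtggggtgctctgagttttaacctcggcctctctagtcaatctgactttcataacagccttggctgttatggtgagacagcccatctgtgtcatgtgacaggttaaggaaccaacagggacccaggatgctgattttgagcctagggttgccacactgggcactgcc
Cd6 intronic region, chr19:10815840-10816139: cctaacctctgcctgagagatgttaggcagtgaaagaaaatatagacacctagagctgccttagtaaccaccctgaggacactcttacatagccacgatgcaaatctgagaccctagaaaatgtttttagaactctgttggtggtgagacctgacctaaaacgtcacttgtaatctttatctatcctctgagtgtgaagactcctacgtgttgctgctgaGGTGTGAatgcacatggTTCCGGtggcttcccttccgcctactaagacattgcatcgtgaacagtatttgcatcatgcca
Cblb intronic region, chr16:52132943-52133242: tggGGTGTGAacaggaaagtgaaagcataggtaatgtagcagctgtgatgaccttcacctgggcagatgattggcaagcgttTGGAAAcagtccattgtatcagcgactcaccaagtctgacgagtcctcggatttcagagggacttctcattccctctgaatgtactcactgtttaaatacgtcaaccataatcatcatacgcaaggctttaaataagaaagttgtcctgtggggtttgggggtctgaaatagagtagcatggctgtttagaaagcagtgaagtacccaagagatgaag
Cblb exonic region, chr16:52143021-52143320: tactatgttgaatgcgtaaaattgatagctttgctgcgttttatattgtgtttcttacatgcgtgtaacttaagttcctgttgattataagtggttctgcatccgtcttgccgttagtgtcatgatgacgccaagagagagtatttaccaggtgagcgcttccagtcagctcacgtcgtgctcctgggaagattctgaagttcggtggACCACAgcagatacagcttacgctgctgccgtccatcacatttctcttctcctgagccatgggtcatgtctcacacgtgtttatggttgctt
Ubash3a intronic region, chr17:31210384-31210683: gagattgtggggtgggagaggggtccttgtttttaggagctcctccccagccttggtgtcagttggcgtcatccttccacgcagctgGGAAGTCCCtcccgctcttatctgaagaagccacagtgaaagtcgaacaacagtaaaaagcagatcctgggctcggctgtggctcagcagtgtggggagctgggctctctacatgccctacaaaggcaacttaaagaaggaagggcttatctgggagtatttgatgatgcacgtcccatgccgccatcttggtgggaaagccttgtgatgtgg

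The 8 motifs were searched on both strands, and a match describes the letters and not a bound factor. They were NFAT (TGGAAA), Egr (GTGGGCG), AP-1 (TGANTCA), Runx (TGTGGT), T-box (GGTGTGA), Tcf/Lef (CTTTGA), NF-kB (GGGANTTCC) and Ets (CCGGAA). The Cd6 intronic region held the T-box letters at position 221 of the window and the Ets letters at 238, and the Cblb intronic region held the T-box letters at 4 and the NFAT letters at 83. The Cblb exonic region held the Runx letters at 209 and the Ubash3a intronic region the NF-kB letters at 88, while the Cd5 upstream window held none of the 8 motifs. Over all 94823 regions the T-box letters were present in 5.48%, the Ets letters in 9.26%, the NFAT letters in 23.4%, the Runx letters in 30.3% and the NF-kB letters in 1.66% of central windows. Among the 260 member regions the shares were 6.92%, 8.85%, 27.3%, 30.8% and 2.69% in the same order. T-box letters were found in 7 of the 25 member regions called lower in BALB/c iNKT2 than in iNKT1 cells (28.0%), beside 15.7% of all 6029 regions of the table called lower in that comparison. They were found in 2 of the 12 member regions called higher (16.7%), beside 3.97% of all 14724 regions called higher. Among those 12, Tcf/Lef letters were in 6 (50%, beside 33.1%), Runx letters in 6 (50%, beside 32.5%) and NFAT letters in 5 (41.7%, beside 29.3%). Egr and Ets letters were in none (beside 3.76% and 4.38%). Among the 25 lower regions, Runx letters were in 12 (48%, beside 52.5%) and NFAT letters in 5 (20%, beside 20.5%). These are few regions, and no such difference was tested.

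Between the 2 subsets of BALB/c mice, the members' regions were more often less accessible in iNKT2 than in iNKT1 cells. A region was called when its adjusted p in edgeR's quasi-likelihood test over all 94823 regions was under 0.01 and its estimated change was at least 4-fold. In BALB/c mice, 25 of the 260 regions (9.62%) were called lower in iNKT2 cells and 12 (4.62%) were called higher, whereas of all regions of the table, 6.36% were called lower and 15.5% higher. With the adjusted p alone and no demand on size, 93 member regions (35.8%) were lower and 31 (11.9%) higher, beside 23.4% and 25.6% of all regions. The median log2 change over the 260 regions was -0.39, beside 0.06 over the table. Both splits moved with the scaling. With library totals in place of trimmed-mean factors, 17 member regions were called lower and 14 higher, beside 5.01% and 18% of the table, and 63 and 45 passed by adjusted p alone, beside 14.8% and 31.3%. With quantile normalization in limma 36 were called lower and 6 higher, and the table was then nearly even, at 9.46% and 9.54%. Leaving out either BALB/c iNKT1 library left 1 in that group, and fewer regions then passed by adjusted p, among members and over the table. The member median was -0.38 without replicate 1 and -0.36 without replicate 2, beside 0.10 and 0.06 over the table. Since nothing in the sources states which animals or pools each library came from, p-values measure the spread between these libraries only.

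In SKG mice the calls between subsets were nearly balanced, and the difference from BALB/c mice in this respect was not tested. There 15 member regions (5.77%) were called lower in iNKT2 cells and 17 (6.54%) higher, beside 6.96% and 10.2% of the table. With the adjusted p alone, 64 (24.6%) were lower and 41 (15.8%) higher, beside 17.6% and 18.4%. The median change was 0.06, beside 0.14 over the table. Scaling again moved the split of members and table. With library totals 45 were lower and 55 higher by adjusted p alone, beside 13.4% and 22.3% of the table, and with quantile normalization 17 were called lower and 6 higher, beside 7.39% and 4.48%. Without SKG iNKT1 replicate 1, which left 1 library in that group, fewer regions passed by adjusted p, among members and over the table. The member median was then 0.06, beside 0.12 over the table. The count called lower rose from 15 to 26 once SKG iNKT2 replicate 1 was left out, beside 7.98% of the table. That library had the highest Il2rb promoter signal of its group. Of the 37 regions called in BALB/c and the 32 called in SKG mice, 21 were called in the same direction in both (56.8% and 65.6% of each list), 14 of them lower and 7 higher, and none was called in opposite directions.

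**Figure D1:**
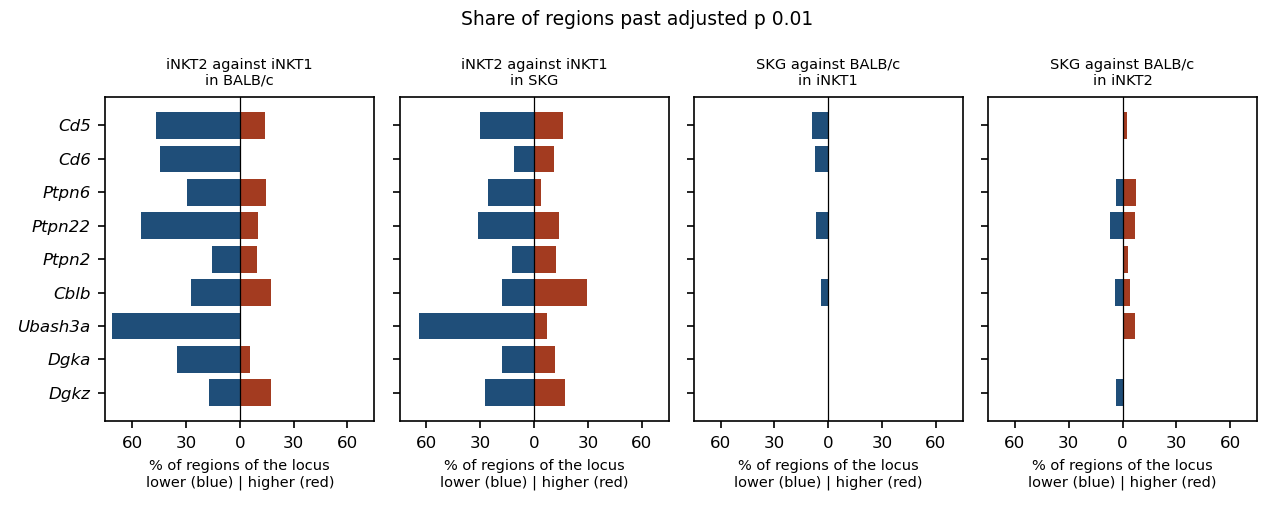
Share of the regions of each gene with an adjusted p under 0.01 (edgeR, all 94823 regions), lower to the left in blue and higher to the right in red, for the comparisons of subsets and of genotypes. In BALB/c mice the Ubash3a, Ptpn22, Cd5 and Cd6 loci had mostly lower regions in iNKT2 cells, and few regions of any member passed between genotypes.

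The members differed among themselves. At Ubash3a, 5 of 14 regions were called lower in BALB/c iNKT2 cells and none higher, and the median change was -1.45. At Ptpn22, 7 of 29 were lower and 1 higher (median -0.90), at Cd5 5 of 43 lower and 3 higher (median -0.81), and at Cd6 3 of 27 lower and none higher (median -0.44). Cblb went the other way among its called regions, with 5 of 51 higher and 2 lower (median -0.25). The remaining loci held few called regions, with 2 lower and 1 higher at Ptpn2, 1 in each direction at Dgkz, 1 higher at Ptpn6 and none at Dgka. In SKG mice the counts were 4 lower and 1 higher at Ubash3a, 2 and 1 at Ptpn22, 4 and 4 at Cd5, 1 and 0 at Cd6, and 2 and 6 at Cblb. Ptpn2 had 2 lower and 3 higher, Dgkz 0 and 2, and Ptpn6 and Dgka none.

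None of the 9 promoter regions was called in any of these comparisons, and the larger differences lay away from the starts. The Cd5 promoter (chromosome 19, 10738633 to 10739153) was at 37.5 and 31.8 CPM in BALB/c iNKT1, 27.6 and 29.2 in SKG iNKT1, 21.3, 17.7 and 18.6 in BALB/c iNKT2, and 19.6, 17.2 and 21.0 in SKG iNKT2 cells. Each iNKT1 library was above each iNKT2 library, and the log2 change was -0.85 ± 0.14 (SE, adjusted p = 1.1e-04, edgeR) in BALB/c and -0.56 ± 0.15 (5.3e-03) in SKG mice. The Cd6 promoter showed -0.91 ± 0.15 in BALB/c (1.1e-04) and -0.34 ± 0.16 in SKG mice (9.2e-02). The SKG value at Cd5 lost its adjusted p under 0.01 once SKG iNKT1 replicate 1 (-0.60) or 2 (-0.52) or SKG iNKT2 replicate 2 (-0.47) was left out. Among the phosphatases the promoters of Ptpn22 (-0.62 ± 0.12 and -0.50 ± 0.12) and Ptpn2 (-0.70 ± 0.11 and -0.46 ± 0.11) were less accessible in iNKT2 cells of both genotypes at an adjusted p under 0.01, and that of Ptpn6 was not (0.24 ± 0.16 and 0.29 ± 0.16). The Ptpn22 values did not pass in BALB/c mice once BALB/c iNKT1 replicate 1 (-0.49) was left out, or in SKG mice once SKG iNKT1 replicate 1 or 2 or SKG iNKT2 replicate 2 or 3 was (-0.51 to -0.47). The Ptpn2 value in SKG mice did not pass once SKG iNKT1 replicate 1 (-0.46) or 2 (-0.45) or SKG iNKT2 replicate 2 (-0.44) was left out. The Cblb promoter, per kilobase the most accessible of all promoters described here at a mean of 223 CPM per kb, was at 61.4 ± 4.41 CPM in BALB/c iNKT1 and 60.6 ± 13.5 in BALB/c iNKT2 cells (-0.02 ± 0.23, adjusted p = 0.95). The Ubash3a promoter region, 5 bp from the start, showed -0.86 ± 0.23 in BALB/c mice (4.3e-03). That value did not pass once BALB/c iNKT1 replicate 1 (-0.91) or 2 (-0.76) or BALB/c iNKT2 replicate 2 (-0.73) or 3 (-0.67) was left out. The Dgka promoter was the only one with more signal in iNKT2 cells at an adjusted p under 0.01, by 0.85 ± 0.15 in SKG mice (2.5e-04), with 0.37 ± 0.15 (3.7e-02) in BALB/c mice. The Dgkz promoter region, 331 bp from the start, gave -0.45 ± 0.19 (4.7e-02) and 0.15 ± 0.20 (0.55). With library totals or with quantile normalization, several of these values no longer passed, all between -0.57 and -0.25, namely those of Ptpn22 in both genotypes, of Ptpn2 and Cd5 in SKG mice and of Ubash3a in BALB/c mice under either setting, and that of Cd5 in BALB/c mice (-0.43) under quantile normalization.

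The most accessible region of the Cd5 window per kilobase, 8.5 kb upstream of the start in intergenic sequence (chromosome 19, 10747544 to 10748089, the Cd5 upstream region printed above), separated the subsets fully. Cd5 itself spans 10717116 to 10739002 and Cd6 10789341 to 10830058, both on the minus strand. It held 69.9 and 74.9 CPM in BALB/c iNKT1 and 77.2 and 72.6 CPM in SKG iNKT1 cells. In BALB/c iNKT2 cells it held 16.7, 13.5 and 14.9 CPM, and in SKG iNKT2 cells 12.2, 4.50 and 6.14 CPM. The log2 change from iNKT1 to iNKT2 was -2.27 ± 0.25 (adjusted p = 2.1e-06, edgeR) in BALB/c and -3.26 ± 0.27 (1.5e-07) in SKG mice. With library totals in place of trimmed-mean factors the BALB/c value was -1.98 and with quantile normalization in limma -1.94, both just short of 4-fold. Between genotypes the iNKT1 libraries overlapped (0.05 ± 0.28), whereas all 3 SKG iNKT2 libraries were below all 3 BALB/c iNKT2 libraries. That difference was -0.94 ± 0.24 with an adjusted p of 1.0e-02, which missed the threshold, and -0.99 ± 0.21 with an adjusted p of 1.5e-03 in the fit with a replicate block, which passed it.

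Other Cd5 regions lay on both sides. The lower ones included an intronic region 6.6 kb into the gene (-3.03 in BALB/c and -2.44 in SKG mice) and an intergenic region 3.1 kb upstream (-2.28 and -2.24). The called region of smallest adjusted p in BALB/c mice was instead more accessible in iNKT2 cells, 37.8 kb upstream of Cd5 (10776752 to 10777221). It held 1.34 and 1.41 CPM in BALB/c iNKT1, 0.385 and 1.15 in SKG iNKT1, 8.41, 9.58 and 7.42 in BALB/c iNKT2 and 5.68, 4.64 and 4.79 in SKG iNKT2 cells. Its change was 2.62 ± 0.28 (1.6e-06) in BALB/c and 2.71 ± 0.34 (9.6e-06) in SKG mice, and the SKG iNKT2 libraries were all below the BALB/c ones (-0.75 ± 0.22, adjusted p = 2.1e-02).

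At Cd6, all 3 regions called in BALB/c mice were intronic and lower in iNKT2 cells. The only region called in SKG mice lay 13.8 kb into the gene (10815748 to 10816232, the Cd6 intronic region printed above). It held 40.2 and 41.6 CPM in BALB/c iNKT1, 23.3 and 22.5 in SKG iNKT1, 5.27, 3.02 and 3.26 in BALB/c iNKT2 and 5.62, 1.65 and 1.21 in SKG iNKT2 cells. The iNKT1 libraries were all far above the iNKT2 libraries, with changes of -3.41 ± 0.38 (2.0e-06) and -2.90 ± 0.39 (1.9e-05). The SKG iNKT1 libraries held less than the BALB/c ones, by -0.84 ± 0.40, which did not pass the test (adjusted p = 0.30). A second intronic region, 16.4 kb into the gene, fell by 2.23 ± 0.22 (6.5e-07) in BALB/c and by 1.84 ± 0.23 (7.9e-06) in SKG mice on the log2 scale. Its BALB/c value was -1.94 with library totals alone and -1.98 without BALB/c iNKT1 replicate 1, both just under 4-fold.

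**Figure D2:**
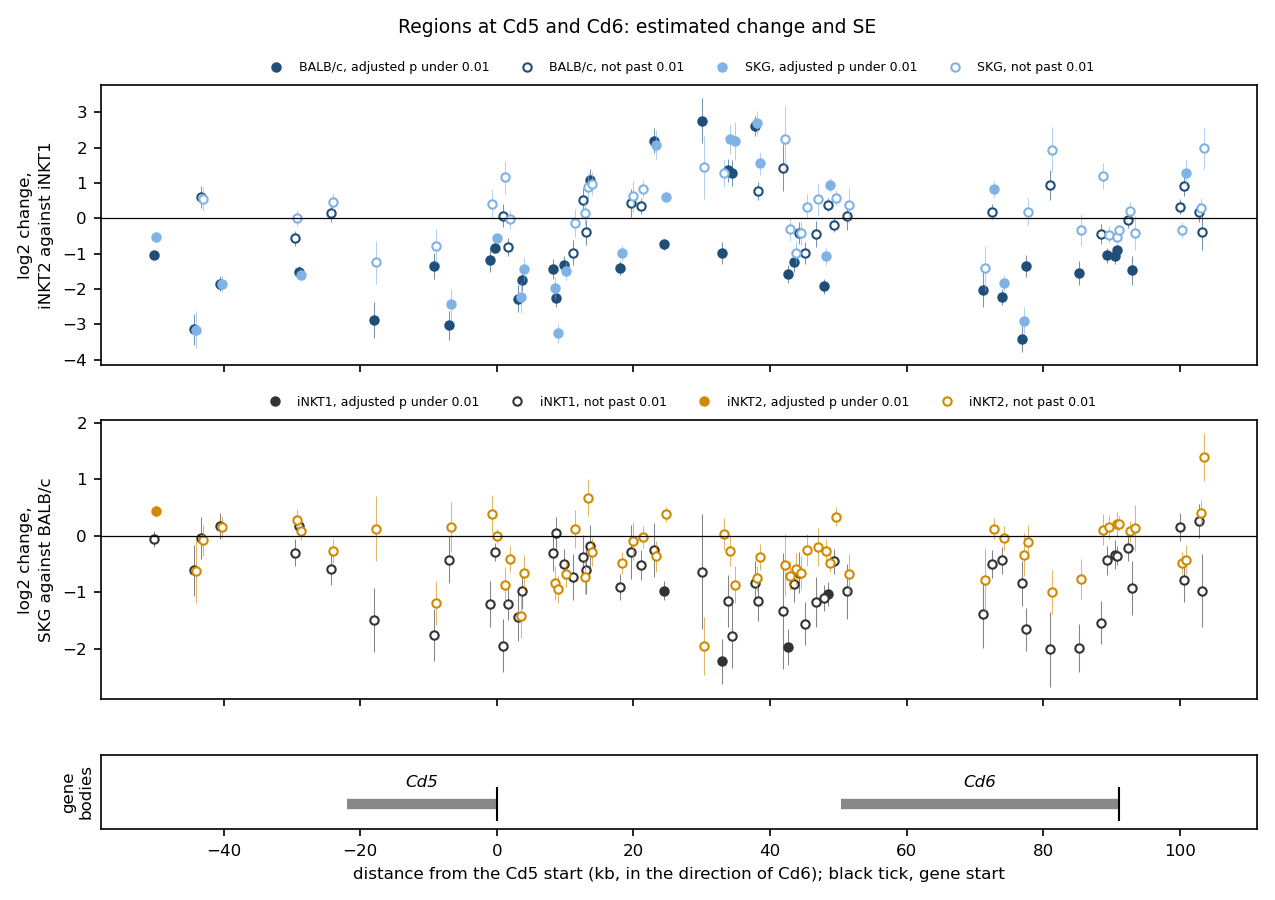
Estimated log2 change with SE (vertical axes) of each region at Cd5 and Cd6 against its distance from the Cd5 start in kb, between subsets in the upper panel and between genotypes in the middle panel; filled points have an adjusted p under 0.01 (edgeR), and the grey bars are gene bodies. Of 31 regions between the Cd5 start and the end of Cd6, 6 were higher and 11 lower in BALB/c iNKT2 cells at that threshold, and 7 and 7 in SKG mice. Of all regions of the table, 25.6% were higher and 23.4% lower in BALB/c iNKT2 cells, and 18.4% and 17.6% in SKG mice. The interval was picked out after its values were seen. Nearly all black points (SKG against BALB/c in iNKT1) between the genes lie under 0.

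Between genotypes, few member regions passed, and in iNKT1 cells those that did were all lower in SKG mice. In iNKT1 cells 2 regions (0.769%) were called lower and none higher, beside 0.732% and 0.281% of the table, and with the adjusted p alone 8 (3.08%) were lower and none higher, beside 1.42% and 0.662%. The 8 became 0 without BALB/c iNKT1 replicate 1 or 2 or SKG iNKT1 replicate 1, and 1 without SKG iNKT1 replicate 2. They became 2 in limma with quantile normalization, 5 with library totals or without BALB/c iNKT2 replicate 2, 16 in DESeq2, with a replicate block or without BALB/c iNKT2 replicate 1, and 17 once SKG iNKT2 replicate 1 was left out. A count near the background, as for the calls of 4-fold or more, is no result about the members. The median change over the 260 regions was -0.32, beside -0.03 over the table, and 185 regions had a negative and 75 a positive value. An unadjusted p under 0.05 was reached by 73 of the 260 regions in either direction (28.1%, beside 17.1% of the table), and DESeq2 likewise called none higher. Medians were -0.92 at Cd6, -0.73 at Cd5, -0.63 at Ptpn22, -0.40 at Ptpn2 and -0.35 at Cblb, and lay between -0.17 and 0.08 at Ubash3a, Ptpn6, Dgka and Dgkz. The 2 SKG iNKT1 libraries were also the shallower pair, and the part of depth in this was not tested.

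The interval between the Cd5 start and the end of Cd6 held 31 regions over 50.3 kb and was picked out after its values were seen. In iNKT1 cells 30 of them had a lower value in SKG than in BALB/c mice (median -0.91), beside 52.7% of all regions of the table with a negative value. Of the 31, 4 passed the adjusted p, all lower, beside 1.42% of the table lower and 0.662% higher. In iNKT2 cells 26 of 31 had a negative value (median -0.48, beside 49.1% of the table). None passed there, beside 10.1% of the table lower and 4.02% higher. Neighbouring regions share libraries and are not independent of each other. The strongest of the 4 by signal, 24.3 kb upstream of Cd5, fell from a mean of 48.8 to 24.9 CPM (-0.97, adjusted p = 3.6e-03), and another, 42.6 kb upstream, from 9.04 to 2.31 CPM (-1.97, 1.8e-03). The third, 48.4 kb upstream, fell from 14.8 to 7.25 CPM (-1.03, 8.6e-03), and both of these also lie in the Cd6 window. The region called at 4-fold, 32.9 kb upstream (10771909 to 10772405), held 3.32 and 4.23 CPM in BALB/c iNKT1, 0.771 and 0.834 in SKG iNKT1, 2.23, 1.77 and 1.69 in BALB/c iNKT2 and 2.76, 1.33 and 1.62 in SKG iNKT2 cells. Its change in iNKT1 cells was -2.22 ± 0.40 (3.8e-03), and in iNKT2 cells 0.04 ± 0.28 (0.93). The difference between these effects was 2.26 ± 0.49 with an adjusted p of 1.9e-02, which missed the threshold. The call in iNKT1 cells was lost when any one of the 4 iNKT1 libraries was left out (adjusted p = 2.4e-02 without BALB/c replicate 1, 3.9e-02 without BALB/c replicate 2, 6.7e-02 without SKG replicate 1 and 4.9e-02 without SKG replicate 2), and in limma with quantile normalization (-1.70, 4.5e-02).

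Of the other 4 regions lower in SKG iNKT1 cells, 2 belonged to Ptpn22 and 2 to Cblb. Within an intron of the neighbouring gene Bcl2l15, 8.7 kb upstream of Ptpn22 (chromosome 3, 103850647 to 103851084), there were 8.15 and 8.20 CPM in BALB/c and 1.09 and 2.95 CPM in SKG iNKT1 cells, a change of -2.01 ± 0.39 (6.1e-03). This call stood at the 4-fold limit and was lost in 7 of the 10 fits that left out a library, with -1.47 (adjusted p = 0.11) without SKG iNKT1 replicate 1 as the smallest change. It was also lost in DESeq2 (-1.98), with library totals (adjusted p = 1.2e-02) and in limma (-1.82, 2.0e-02). A neighbouring region in the same gene, 8.0 kb upstream, fell from 6.44 to 1.70 CPM (-1.92, 8.5e-03). The 2 Cblb regions were an intronic region 38.4 kb into the gene, at 5.22 in BALB/c and 1.44 CPM in SKG iNKT1 cells (-1.84, 4.6e-03), and one 94.7 kb into the gene, at 18.6 and 4.65 CPM (-2.00, 1.8e-03), whose unrounded value lay just short of 4-fold.

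In iNKT2 cells, 1 member region was called higher in SKG mice (0.385%) and 2 lower (0.769%), beside 0.252% and 4.73% of the table, so the members held a smaller share of regions called lower than the table. With the adjusted p alone 9 (3.46%) were higher and 6 (2.31%) lower, beside 4.02% and 10.1%, and the median change was 0.04, beside 0.01. The same-numbered iNKT2 libraries of the genotypes deviated together, and with a replicate block 13 member regions were higher and 11 lower, beside 5.89% and 11.8% of the table. The block tied libraries by number over all 4 groups, and so also iNKT1 libraries, which were not taken as paired. With library totals 3 were higher and 8 lower by adjusted p alone, beside 1.76% and 10.9%, and with quantile normalization 5 were called higher and 2 lower, beside 1.24% and 3.66%. Dropping any single iNKT1 library left 1 in its group, and fewer regions then passed as higher, among members and over the table. The 9 higher regions became 3 once BALB/c iNKT2 replicate 2 (beside 1.44% of the table) or 3 (1.46%) was dropped. They also became 3 with replicate 3 of SKG iNKT2 dropped (2.27%). The count was 6 on dropping replicate 2 of SKG iNKT2 (2.61%) and 5 on dropping replicate 1 of BALB/c iNKT2 (4.06%). It rose to 12 in DESeq2 (4.45%) and on dropping replicate 1 of SKG iNKT2 (4.58%). Of the lower regions there were 19 (beside 10.5% of the table) once SKG iNKT2 replicate 1 was left out. There were 2 (6.82%) once replicate 2 of that group was, and 12 (11.6%) in DESeq2. The lower regions at 4-fold again moved with SKG iNKT2 replicate 1, for 6 were called without it, and 1 without SKG iNKT2 replicate 2, beside 5.53% and 3.73%.

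The region called higher lay in an intron of Ubash3a, 2.5 kb into the gene (chromosome 17, 31210345 to 31210723, the Ubash3a intronic region printed above). It held 4.78, 2.20 and 1.89 CPM in SKG iNKT2 cells, and in the other libraries 0.220, 0.423 and 0.289 (BALB/c iNKT2), 0.179 and 0.353 (BALB/c iNKT1) and 0.257 and 0.577 CPM (SKG iNKT1). The 3 SKG iNKT2 libraries were each above all 7 others, although counts were small, with 161, 48 and 28 insertions against 4 to 16. The change between genotypes was 3.24 ± 0.45 in iNKT2 cells (adjusted p = 9.8e-05) and 0.70 ± 0.75 in iNKT1 cells (0.72), but the difference between these effects, 2.54 ± 0.89, did not pass (0.12). The same region was higher in iNKT2 than in iNKT1 cells of SKG mice, by 2.85 ± 0.56 (6.1e-04), and not of BALB/c mice (0.31 ± 0.64, 0.70). With a filter on mean count this region was not tested.

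The 2 regions called lower were weakly accessible. One in an intron of Ptpn6, 1.3 kb into the gene (chromosome 6, 124737041 to 124737403), held 2.73, 4.10 and 2.68 CPM in BALB/c and 0.713, 0.873 and 0.809 CPM in SKG iNKT2 cells, without overlap (-2.00 ± 0.30, adjusted p = 1.8e-04). It fell just short of 4-fold when BALB/c iNKT2 replicate 2 (-1.82) or SKG iNKT2 replicate 1 (-1.91) was left out. The other, 30.4 kb upstream of Ptpn22 in an intron of the gene Gm43064 (chromosome 3, 103829058 to 103829357), held 2.26, 0.688 and 0.660 CPM in BALB/c and 0.149, 0.0918 and 0.135 CPM in SKG iNKT2 cells (-3.20 ± 0.65, 2.2e-03). Its SKG values stand on 5, 2 and 2 insertions. The call was lost when BALB/c iNKT2 replicate 1 (-2.37, 1.3e-02) or SKG iNKT2 replicate 2 (-3.04, 1.3e-02) was left out, and in limma (-2.47, 4.7e-02). Of the member promoters, that of Ptpn2 was at 74.7 ± 3.80 CPM in BALB/c and 96.5 ± 2.70 CPM in SKG iNKT2 cells (n = 3 each), a change of 0.37 ± 0.10 that passed in the fit with a replicate block only (adjusted p = 5.8e-03, against 1.5e-02 without it).

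For the difference between the effects of the SKG mutation in the 2 subsets, 1 member region was called positive (0.385%, beside 0.189% of the table) and none negative (beside 0.341%). With the adjusted p alone 3 (1.15%) were positive and none negative, beside 0.446% and 0.479%, and 55 of the 260 member regions had an unadjusted p under 0.05 (21.2%, beside 19.8% of the table). The 3 became 0 without BALB/c iNKT2 replicate 3 (0.117% of the table positive) and 1 without BALB/c iNKT2 replicate 2 (0.155%). They became 6 with a replicate block or once SKG iNKT2 replicate 1 was left out. Nor did the 3 hold without any single iNKT1 library, which left 1 in its group, and the table's share fell too. DESeq2 gave 10 positive and 1 negative, beside 1.01% and 1.83% of the table. Limma or library totals gave 1 positive and none negative, beside 0.195% and 0.246% in limma and 0.188% and 0.347% with library totals. The table's share of positive regions was 0.906% with the block and 0.748% without SKG iNKT2 replicate 1. The called region lay 28.8 kb upstream of Ptpn22, in an untranslated region of Gm43064 (chromosome 3, 103830662 to 103831042). It held 1.58 and 2.16 CPM in BALB/c iNKT1, 0.771 and 0.385 in SKG iNKT1, 1.07, 1.51 and 1.15 in BALB/c iNKT2 and 3.36, 2.94 and 3.98 in SKG iNKT2 cells. The SKG libraries were thus below the BALB/c ones in iNKT1 cells (-1.67 ± 0.42, adjusted p = 2.8e-02) and above them in iNKT2 cells (1.44 ± 0.27, 1.3e-03), and the difference was 3.12 ± 0.50 (3.6e-03). This call did not pass once any 1 of the 4 iNKT1 libraries was left out, nor once replicate 3 of either iNKT2 group was, with 2.70 to 3.70 and adjusted p of 1.0e-02 to 3.3e-02. Another of the 3 was an intronic Dgkz region 3.3 kb into the gene (chromosome 2, 91972096 to 91972604), with 4.36 and 3.13 CPM in BALB/c iNKT1, 1.54 and 1.60 in SKG iNKT1, 4.14, 4.23 and 4.25 in BALB/c iNKT2 and 7.07, 7.30 and 5.80 in SKG iNKT2 cells. Its subset change was 0.16 ± 0.21 (0.54) in BALB/c and 2.10 ± 0.25 (6.5e-06) in SKG mice, and the difference was 1.94 ± 0.33 (5.2e-03). In limma its SKG subset change was 1.95. The third was the Cd5 region 24.3 kb upstream described above, with 42.5 and 55.1 CPM in BALB/c iNKT1, 22.7 and 27.1 in SKG iNKT1, 29.7, 29.5 and 28.5 in BALB/c iNKT2 and 44.3, 33.8 and 35.7 in SKG iNKT2 cells. SKG libraries were below BALB/c ones in iNKT1 cells and above them in iNKT2 cells, and the difference between the effects was 1.35 ± 0.22 (4.4e-03).

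In BALB/c mice Cblb held the widest range of subset changes among the 9 genes. The gene lies on chromosome 16 (52031225 to 52208048, plus strand). Its called region of smallest adjusted p in BALB/c mice lay in an intron 101.5 kb into the gene (chromosome 16, 52132740 to 52133445, the Cblb intronic region printed above) and held 38.1 and 39.5 CPM in BALB/c iNKT1, 28.4 and 29.0 in SKG iNKT1, 6.43, 4.31 and 5.94 in BALB/c iNKT2 and 7.31, 6.93 and 6.20 in SKG iNKT2 cells. The iNKT1 libraries stood above all iNKT2 libraries, with changes of -2.81 ± 0.17 (9.7e-09) and -2.07 ± 0.17 (1.8e-07). The called region of smallest adjusted p in SKG mice lay 111.5 kb into the gene (52142741 to 52143601, the Cblb exonic region printed above) and ran in the opposite direction. It held 10.9 and 12.1 CPM in BALB/c iNKT1, 5.33 and 7.70 in SKG iNKT1, 48.0, 52.9 and 49.5 in BALB/c iNKT2 and 47.9, 42.9 and 49.8 in SKG iNKT2 cells, and rose by 2.12 ± 0.16 (5.2e-08) and 2.85 ± 0.17 (1.5e-08). The largest changes were found farther out, and these regions are named here after their values were seen. An intergenic region 21.5 kb upstream of the start was at 0.133 CPM in BALB/c iNKT1 and 6.52 CPM in BALB/c iNKT2 cells (5.65) and at 0.192 and 2.97 CPM in the SKG groups (3.92), and its neighbour 23.8 kb upstream rose by 4.15 and 5.11. The intronic region 94.7 kb into the gene fell by 5.26 and by 2.79 on the log2 scale.

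**Figure D3:**
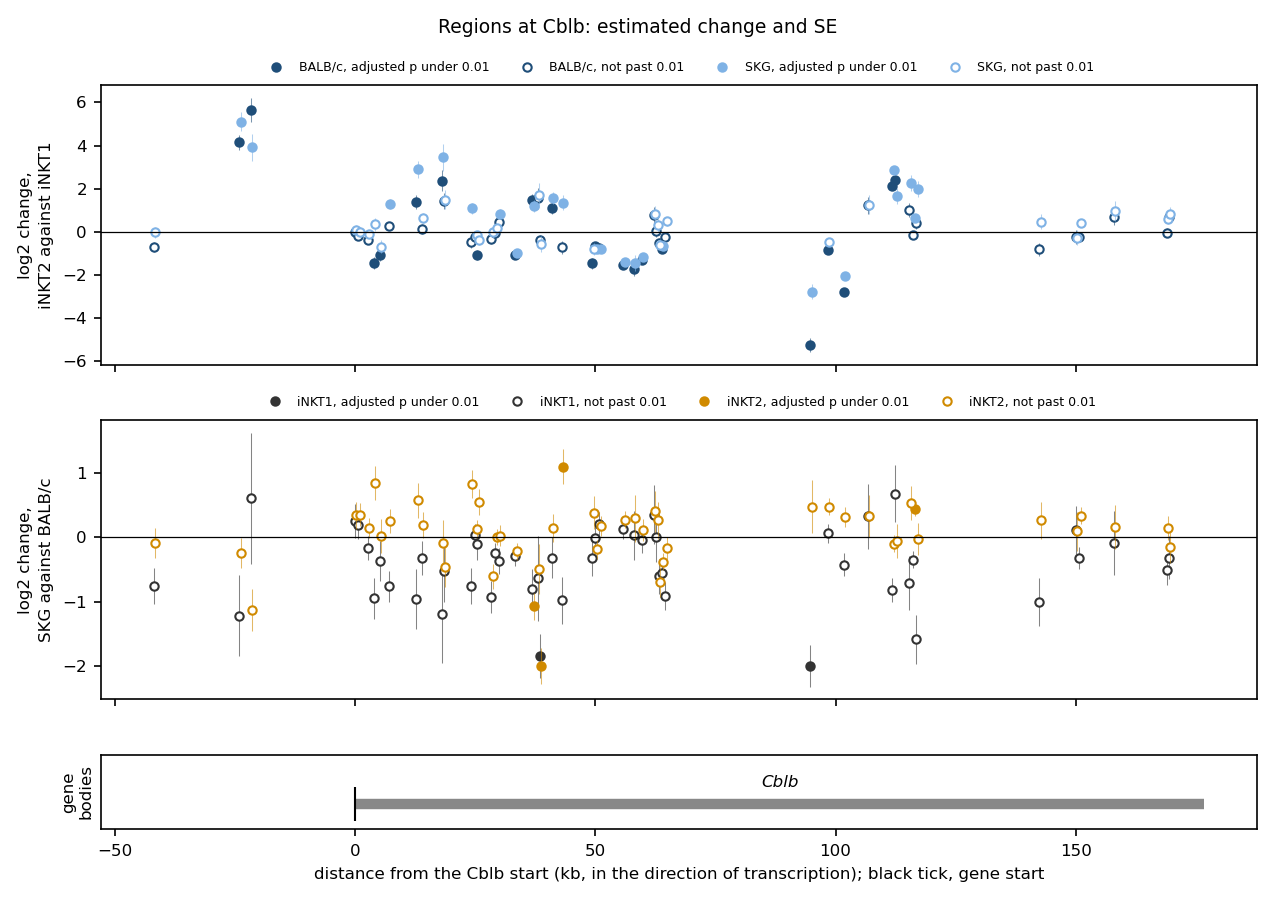
Estimated log2 change with SE (vertical axes) of the 51 regions at Cblb against distance from the gene start in kb, between subsets in the upper panel and between genotypes in the middle panel; filled points have an adjusted p under 0.01 (edgeR). Strongly higher regions in iNKT2 cells lie upstream of the start and near 112 kb, and strongly lower ones near 95 and 102 kb.

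Ubash3a (chromosome 17, 31207873 to 31246892, plus strand) was the locus with the largest share of lower regions in iNKT2 cells. In BALB/c mice its called region of smallest adjusted p overlapped an exon 12.2 kb into the gene (chromosome 17, 31220062 to 31220472) and held 17.1 and 14.1 CPM in BALB/c iNKT1, 12.1 and 15.4 in SKG iNKT1, 1.63, 1.14 and 0.536 in BALB/c iNKT2 and 1.72, 0.873 and 0.607 in SKG iNKT2 cells. The subsets did not overlap, and the changes were -3.79 ± 0.34 (2.5e-07) and -3.57 ± 0.35 (9.0e-07). A region 15.7 kb upstream, in an intron of the neighbouring gene Tmprss3, fell by 4.78 ± 0.43 (2.6e-07) and by 5.32 ± 0.50 (5.6e-07) on the log2 scale, from 5.94 and 5.26 CPM in BALB/c and SKG iNKT1 cells to 0.206 and 0.127 CPM. The most accessible region of the locus per kilobase, in an intron 15.9 kb into the gene, was at 35.1 ± 4.47 and 31.1 ± 1.42 CPM in iNKT1 cells and 9.90 ± 3.53 and 7.71 ± 3.02 CPM in iNKT2 cells of BALB/c and SKG mice. Its changes of -1.83 ± 0.27 (3.2e-05) and -1.99 ± 0.28 (2.8e-05) were under 4-fold. A region 308 bp upstream of the start, beside the promoter region, was called lower in BALB/c iNKT2 cells (-2.08, from 7.75 to 1.81 CPM) and was at -1.54 in SKG mice.

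Among the phosphatase genes, Ptpn22 held an intronic region 4.5 kb into the gene (chromosome 3, 103864252 to 103864738) with the smallest adjusted p in both genotypes. It was at 7.26 and 8.77 CPM in BALB/c iNKT1, 6.49 and 6.61 in SKG iNKT1, 1.00, 0.423 and 0.371 in BALB/c iNKT2 and 1.01, 0.551 and 0.270 in SKG iNKT2 cells. The iNKT1 libraries were above all iNKT2 libraries, with changes of -3.71 ± 0.37 (6.6e-07) and -3.27 ± 0.39 (5.2e-06), and the genotypes overlapped in iNKT2 cells. The lead region of Ptpn2 lay 8.9 kb upstream in intergenic sequence and was at 7.48 ± 0.773 and 11.5 ± 2.05 CPM in iNKT1 cells (n = 2) and 1.35 ± 0.440 and 1.21 ± 0.402 CPM in iNKT2 cells (n = 3) of BALB/c and SKG mice, with changes of -2.45 ± 0.28 (2.5e-06) and -3.21 ± 0.29 (4.1e-07). The single region called at Ptpn6 lay in an untranslated region of Eno2 29.5 kb upstream and rose by 2.03 ± 0.45 (1.1e-03) in BALB/c mice from 0.333 to 1.33 CPM. It missed 4-fold or the threshold when BALB/c iNKT1 replicate 1 (1.79) or BALB/c iNKT2 replicate 2 (1.90) was left out, and was at 0.92 in limma with quantile normalization. The strongest signal per kilobase in the Ptpn6 window, 6.7 kb upstream over an exon of Atn1, was lower in iNKT2 cells by less than 4-fold (-0.72 ± 0.12 and -0.84 ± 0.12), and in BALB/c mice it did not pass with quantile normalization (-0.30).

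The diacylglycerol kinase genes held few called regions. No Dgka region was called in any comparison, and the most accessible region in its window was the start of the neighbouring gene Rab5b, at 113 ± 1.65, 132 ± 10.3, 103 ± 9.70 and 120 ± 8.95 CPM in BALB/c iNKT1, SKG iNKT1, BALB/c iNKT2 and SKG iNKT2 cells. That of Dgkz, in an intron of Creb3l1, was at 54.1 ± 0.0332, 53.5 ± 0.690, 47.1 ± 7.49 and 55.7 ± 7.53 CPM in the same order, and did not pass in any comparison (adjusted p = 0.26 between the BALB/c subsets). One intronic Dgkz region, 27.7 kb into the gene, was called lower in BALB/c iNKT2 cells (-2.23 ± 0.25, 2.2e-06, from 10.6 to 2.26 CPM) and was at -1.19 ± 0.27 (1.6e-03) in SKG mice. With library totals alone its BALB/c value was -1.94.

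**Figure D4:**
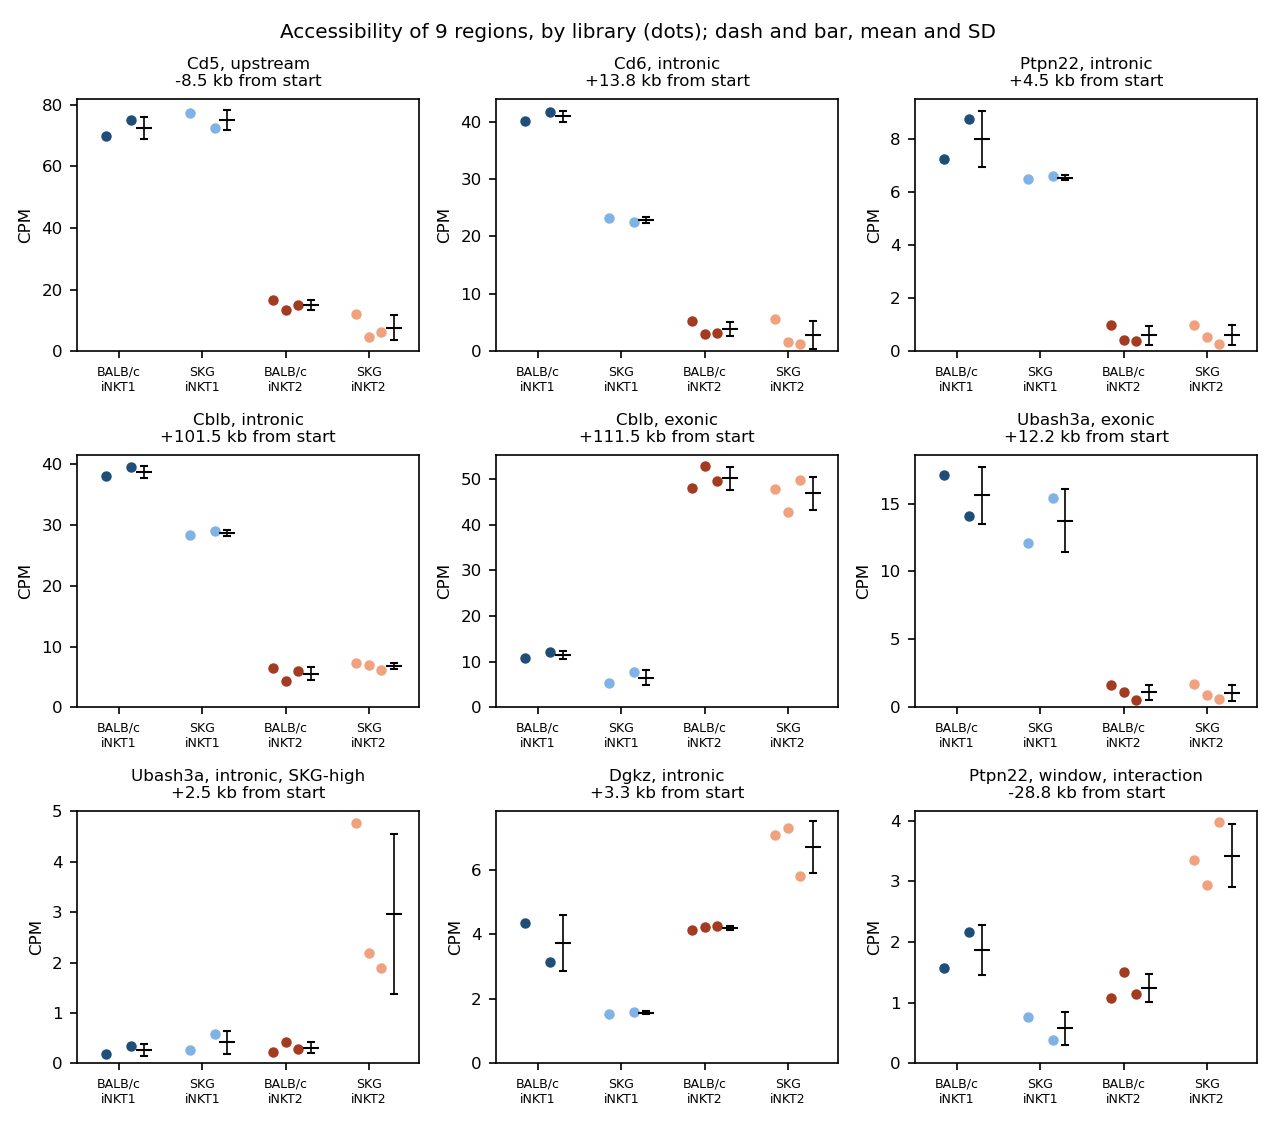
Accessibility in CPM (vertical axes) of 9 regions in each of the 10 libraries, with dots for libraries and a dash and bar for the group mean and SD. The 6 panels (Cd5, Cd6, Ptpn22 intronic, both Cblb and Ubash3a exonic) separate iNKT1 from iNKT2 cells in both genotypes, whereas the bottom row separates SKG iNKT2 cells from the other groups.

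Summed over each locus and given per kilobase of region, signal in BALB/c mice was lower in iNKT2 than in iNKT1 cells at all 9 genes, but so was that of most genes. In SKG mice the subsets overlapped at Cblb, where the log2 ratio of iNKT2 to iNKT1 means was 0.02. The sum at Cd5 was 25.9 ± 0.209 CPM per kb in BALB/c iNKT1, 19.2 ± 0.101 in SKG iNKT1, 13.5 ± 1.44 in BALB/c iNKT2 and 12.3 ± 2.06 in SKG iNKT2 cells. The sums at Cd6 were 19.1 ± 0.929, 11.9 ± 0.0407, 9.98 ± 1.06 and 9.12 ± 1.52, and those at Ubash3a 21.1 ± 1.83, 19.6 ± 2.33, 7.03 ± 1.64 and 7.59 ± 2.34 in the same order. At Cd5 and Cd6 the order was BALB/c iNKT1, SKG iNKT1, then the iNKT2 groups, which overlapped each other, and at Ubash3a the groups of one subset overlapped. In BALB/c mice the log2 ratio of iNKT2 to iNKT1 means was -1.58 at Ubash3a, -0.94 at Cd5, -0.94 at Cd6 and -0.85 at Ptpn22, and between -0.44 and -0.23 at Ptpn6, Dgka, Ptpn2, Cblb and Dgkz, beside a median of -0.34 over 13751 protein-coding genes with at least 5 regions in the same window. All 9 loci had every BALB/c iNKT2 library below every iNKT1 library, as did 66.0% of those 13751 genes. At every locus but Cblb the same held in SKG mice, as it did for 50.4% of those genes. In iNKT1 cells the ratio of SKG to BALB/c means was -0.69 at Cd6 and -0.43 at Cd5, beside a median of 0.03, and the other 7 loci lay between -0.17 and 0.13. Both SKG iNKT1 libraries were below both BALB/c ones at Cd5, Cd6, Ptpn22, Cblb and Dgkz, and above them at Ptpn6 and Dgka. Among the 13751 genes they were below at 23.9% and above at 39.2%. Per kilobase, Cblb, Dgka and Ptpn6 had the highest sums in BALB/c iNKT1 cells (37.1, 35.9 and 32.6 CPM per kb).

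**Figure D5:**
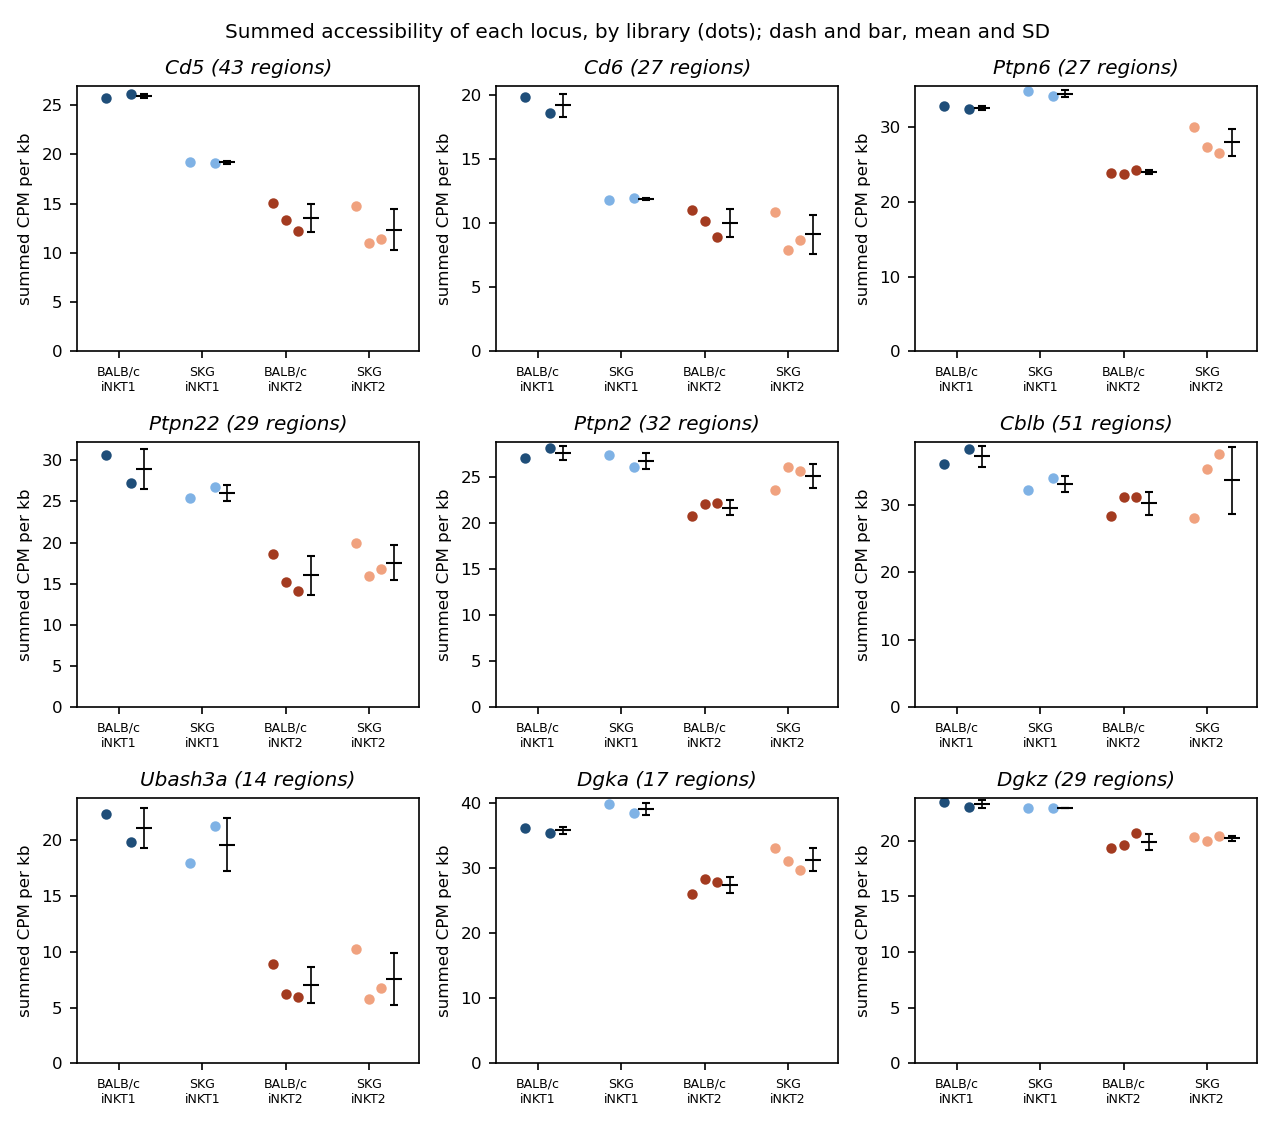
Summed accessibility of the regions of each gene in CPM per kb of region (vertical axes, from 0), with dots for the 10 libraries and a dash and bar for the group mean and SD. Cd5 and Cd6 fall from BALB/c iNKT1 to SKG iNKT1 cells without overlap, as do 23.9% of 13751 protein-coding genes. Ubash3a falls between the subsets without overlap, as do 66.0% of those genes in BALB/c and 50.4% in SKG mice.

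The genes whose summed signal ran most like that of Cd5 over the 10 libraries, on the log2 scale, were Ergic1 (Pearson r = 0.990), Atp6v0e (0.986) and Vmp1 (0.985). Those most like Cd6 were 4933407L21Rik (0.985), Itm2c (0.979) and Cep295nl (0.971). These are the highest of 13747 and 13746 genes, and the libraries of a group share their subset and genotype, so such values describe 4 groups more than 10 independent points.

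A wider list of 18 genes that restrain antigen receptor signalling (Csk, Pag1, Cbl, Itch, Ubash3b, Sla, Sla2, Dok1, Dok2, Lax1, Sit1, Ptpn7, Ptpn11, Ptpn12, Inpp5d, Rasa2, Rasa3 and Ptprj) held 450 regions, none of them shared with the members. In BALB/c mice 30 were called lower in iNKT2 cells and 30 higher (6.67% each), beside 6.36% and 15.5% of the table, with a median of -0.27. In SKG mice 36 (8%) were lower and 33 (7.33%) higher, beside 6.96% and 10.2%, with a median of -0.09. The shares called lower at 4-fold were thus near those of the table. With the adjusted p alone, 142 (31.6%) were lower and 66 (14.7%) higher in BALB/c iNKT2 cells, beside 23.4% and 25.6% of the table. The members stood at 35.8% and 11.9% by that measure, so more lower than higher regions were not particular to them. In SKG mice 104 (23.1%) were lower and 75 (16.7%) higher, beside 17.6% and 18.4%. In iNKT1 cells 2 (0.444%) were called lower and 1 (0.222%) higher in SKG mice, beside 0.732% and 0.281% (median -0.13). In iNKT2 cells 23 (5.11%) were called lower and 1 higher, near the 4.73% of the table, and 17 of the 23 lay at Ptprj, which encodes a receptor phosphatase. Single genes of the list are named here after their counts were seen. Rasa3 and Sla encode a Ras GTPase-activating protein and an adaptor that lowers receptor levels. They had 7 of 31 and 7 of 47 regions called lower in BALB/c iNKT2 cells and 1 and none higher. Ubash3b, the relative of Ubash3a, had 4 of 56 regions higher and 2 lower in BALB/c mice and 11 higher and 2 lower in SKG mice.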

How the data were processed

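Nuclei of sorted thymic iNKT1 and iNKT2 cells were tagged with Tn5 transposase and sequenced in pairs. According to the study's methods and processing notes, reads were mapped uniquely to mm10 with Bowtie 1.0, untrimmed first and then after Trim Galore, and mitochondrial and duplicate reads were removed. MACS2 called summits on short fragments in each library, and the authors merged them into one set of regions. The deposited table holds counts, namely whole numbers of transposase insertions per region and library, as the authors counted them, although its name speaks of normalization. Unique mapping can lower counts in repeats. No shift of insertion sites is given in the sources used here.

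Regions were assigned to genes with GENCODE vM21. edgeR 4.0.16 (quasi-likelihood F test, trimmed-mean factors, 1 mean per group, all 10 libraries, R 4.3.3) was run on all 94823 regions with Benjamini-Hochberg adjustment, and a call needed an adjusted p under 0.01 and a change of at least 4-fold, the study's thresholds. SEs are the estimate divided by the root of F. Voom with quantile normalization and limma (3.58.1) was an alternative, as was DESeq2 1.42.0. CPM used trimmed-mean library sizes. Sequences came from RefSeq's GRCm38 genome. The fit was tested on simulated counts. At each member the named regions were its promoter, the called region of smallest adjusted p per comparison, the region of highest CPM per kb and any called in the interaction. Others were named after their values were seen. Some marker genes are not reported here. The members and lists were chosen with earlier results of these data known.

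Within groups, libraries correlated at 0.968 to 0.991 and none agreed within sampling noise (smallest chi-square per degree of freedom 2.53). Same-numbered iNKT2 libraries of the 2 genotypes deviated together (correlations of deviations 0.517, 0.181 and 0.224), which was taken as pairing from the data, since nothing in the labels ties a number to a shared day or litter. Other same-numbered libraries, in groups of 2, correlated at -0.0131 to 0.161 and were not taken as paired. The replicate block nonetheless spanned all 4 groups and tied these libraries by number too.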

Additional observations from a re-analysis of the deposited data

Results flagged for a closer look

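In the test of the difference between the effects of the SKG mutation in the 2 subsets, 1 member region was called at 4-fold. That was 0.385% of the members, beside 0.189% of the table. By adjusted p alone 3 member regions passed (1.15%, beside 0.446% of the table), this one among them. Its call was lost once any single iNKT1 library, or replicate 3 of either iNKT2 group, was left out. At the region 28.8 kb upstream of Ptpn22, the SKG effect in iNKT2 cells minus that in iNKT1 cells was 3.12 on the log2 scale (SE 0.50, adjusted p = 3.6e-03, edgeR), with lower values in SKG iNKT1 and higher values in SKG iNKT2 cells than in BALB/c cells. It lies in the neighbouring gene Gm43064 nearest to the start of Bcl2l15, and its libraries held 6 to 113 insertions.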

How the results depend on the processing

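Of 35 named region values, 17 missed their threshold under at least one alternative and none changed direction. Of the 170 recomputed counts of called member regions, 133 were within 1.5 times of the values in the text and 37 were not. Relaxing the call to an adjusted p under 0.05 and at least 2-fold gave 34 higher and 70 lower in BALB/c subsets, and 49 and 50 in SKG subsets. It gave 23 lower in SKG iNKT1 cells, 6 higher and 11 lower in SKG iNKT2 cells and 11 positive differences between the effects. The shares of all regions under this relaxed call were not computed, so these counts have no background beside them. With limma and quantile normalization 6 regions were higher in iNKT2 cells in each genotype, beside 9.54% of the table in BALB/c and 4.48% in SKG mice. None was lower in SKG iNKT1 cells and 5 were higher in SKG iNKT2 cells, beside 0.136% and 1.24%. DESeq2 gave 1 lower in SKG iNKT1 cells, 4 lower in SKG iNKT2 cells and 4 positive differences, beside 0.812%, 5.05% and 0.318%. Testing only regions with a mean count above 36.2, the lower quartile, gave 0 higher and 1 lower in SKG iNKT2 cells, beside 0.17% and 2.62%. Counting only regions nearest to a member's start gave 1 lower in SKG iNKT2 cells and 0 positive differences.

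Leaving out 1 library at a time gave 13 to 26 regions lower between SKG subsets (26 without SKG iNKT2 replicate 1), 0 to 2 lower in SKG iNKT1 cells, 1 to 6 lower in SKG iNKT2 cells (6 without SKG iNKT2 replicate 1) and 0 to 2 positive differences, where a single library left in an iNKT1 group borrows its spread from the rest. With the replicate block, 2 regions had a positive difference in place of 1, and no other 4-fold count except the 2 lower in each genotype comparison, which became 3, moved by 1.5 times or more. By adjusted p alone the block moved the regions lower in SKG iNKT1 cells from 8 to 16, those lower in SKG iNKT2 cells from 6 to 11 and the positive differences from 3 to 6. The table's shares moved from 1.42% to 2.02%, from 10.1% to 11.8% and from 0.446% to 0.906%. Library totals in place of trimmed-mean factors moved the median change of all regions from 0.06 to 0.34 in BALB/c subsets, from 0.14 to 0.32 in SKG subsets and from 0.01 to -0.12 in the genotype comparison of iNKT2 cells. The causes of these shifts were not tested. Weak regions of few insertions, such as those in the Ptpn22 window, limit what a difference there can show.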
